A study of Sus scrofa with 599 samples.

Results

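Mesenteric adipose tissue (MAD), the fat of the mesentery along the intestine, was compared between pigs on a normal diet (NC) and pigs after weight gain (WG). All deposited RNA-seq and Hi-C samples labelled as NC MAD or WG MAD were taken. The RNA-seq libraries were 12 NC and 36 WG, which are 48 of the 236 RNA-seq samples that match a label. The Hi-C samples were 12 NC and 37 WG, which are 49 of 240. MAD samples of H3K27ac, a histone mark of active enhancers, and their inputs are also in the series and were not used. The series held 599 samples of 4 adipose tissues (AT) in 3 nutritional conditions. The animals were 2-year-old female Bama pigs, a miniature breed, and the WG pigs had been fed a high-fat diet for 22 weeks. NC and WG samples came from different pigs. Each RNA-seq library came from a piece of whole tissue, so fewer cells of a type and less RNA per cell cannot be told apart. For Hi-C, per the study's methods, the layer that held adipocytes was taken after cross-linking. The 2 assays therefore need not hold the same cells.

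Mesenteric fat surrounds the vessels, lymph nodes and lymphatics of the gut, and its veins drain to the liver. Its adipocytes store triglycerides and secrete hormones such as leptin and adiponectin, while macrophages in the tissue take up dying adipocytes and released lipid and turn on genes for lysosomes and lipid handling. In the nucleus, chromatin is divided into an open compartment A, rich in transcribed genes, and a closed compartment B.

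The total of estimated counts on protein-coding genes (PCGs) was 8005550 to 21140387 per NC library (median 17908076.5) and 4841230 to 22797044 per WG library (median 17408757). The share of TPM (a level corrected for gene length and depth) that fell on PCGs was below 90% in NC replicates 5 and 7 and in WG replicates 6 and 19, and the difference between the group means (1.14 percentage points, WG minus NC) did not pass a 2-sided permutation test (p = 0.547). Adipocyte markers were abundant in every library: the summed TPM of 7 of them was 3942, 15159 and 20421 in NC and 10992, 17029 and 24804 in WG (lowest, median and highest, as in all such triplets given here). Of 12 markers of the intestinal epithelium, 10 had a median below 0.5 TPM in both groups. The libraries that stood apart did so in genes of other tissues. The sum over 17 smooth muscle genes was 32881 TPM in NC replicate 1 and 9468 TPM in NC replicate 5, against a median of 3093 TPM in NC and a highest of 5102 TPM in WG. *ALB*, the albumin of liver, was above 400 TPM in NC replicates 4, 7 and 11 and in WG replicates 7 and 20. WG replicate 31 held 4449 TPM of B cell and plasma cell genes, against 621 TPM in the next WG library. In WG replicate 28 the erythroid genes summed to 18115 TPM, against 6528 TPM in the next WG library and at most 2803 TPM in NC. No alternative fit left WG replicate 28 out.

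Of 13845 PCGs tested, 745 (5.38%) were differentially expressed genes (DEGs) with a higher level in WG and 732 (5.29%) with a lower level, at an adjusted p below 0.05 in the quasi-likelihood test of edgeR and a fold change above 1.5. Leaving out NC replicates 1, 5 and 6, the libraries with the highest *ACTG2*, gave 513 higher and 387 lower, of which 449 and 319 were among the DEGs of all libraries. The median log2 fold change of all tested genes was -0.01. Counts of list members below are to be read beside the shares of 5.38% higher and 5.29% lower. Among the lists and genes named here, 20 of 23 macrophage genes, leptin and 7 of 27 genes of the collagen list rose. Of 17 smooth muscle genes, 10 fell. Without NC replicates 1, 5 and 6, 13 of the 23 macrophage genes were higher and 1 of the 17 smooth muscle genes was lower. The largest fall was that of *PCP4*, which kept its call in that setting, while *ACTG2* lost its call.

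The largest rise among abundant DEGs was that of *SPP1* (chr8:131077786-131085334 on the minus strand of Sscrofa11.1), which encodes osteopontin, a secreted protein made by lipid-laden macrophages. Its level was 10.7, 44.2 and 209 TPM in NC and 40.5, 403 and 1896 TPM in WG. The groups overlapped, but 28 of 36 WG libraries lay above the highest NC library. The log2 fold change was 2.93 ± 0.52 (SE, edgeR adjusted p = 9.5e-05). *MSR1*, the macrophage scavenger receptor for modified lipoproteins, was measured at 3.04, 19.1 and 62.5 TPM in NC and at 12.7, 87.8 and 321 TPM in WG. Again 25 WG libraries exceeded all NC libraries (log2 fold change 2.08 ± 0.37, edgeR adjusted p = 0.00011). *TREM2*, a lipid-sensing receptor of macrophages, rose from a median of 2.45 TPM (range 1.14 to 7.90) to 9.65 TPM (1.86 to 40.04), a log2 fold change of 1.79 ± 0.39 (edgeR adjusted p = 0.0011). Here the overlap was wider, with 19 WG libraries above the highest NC library.

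**Figure D1:**
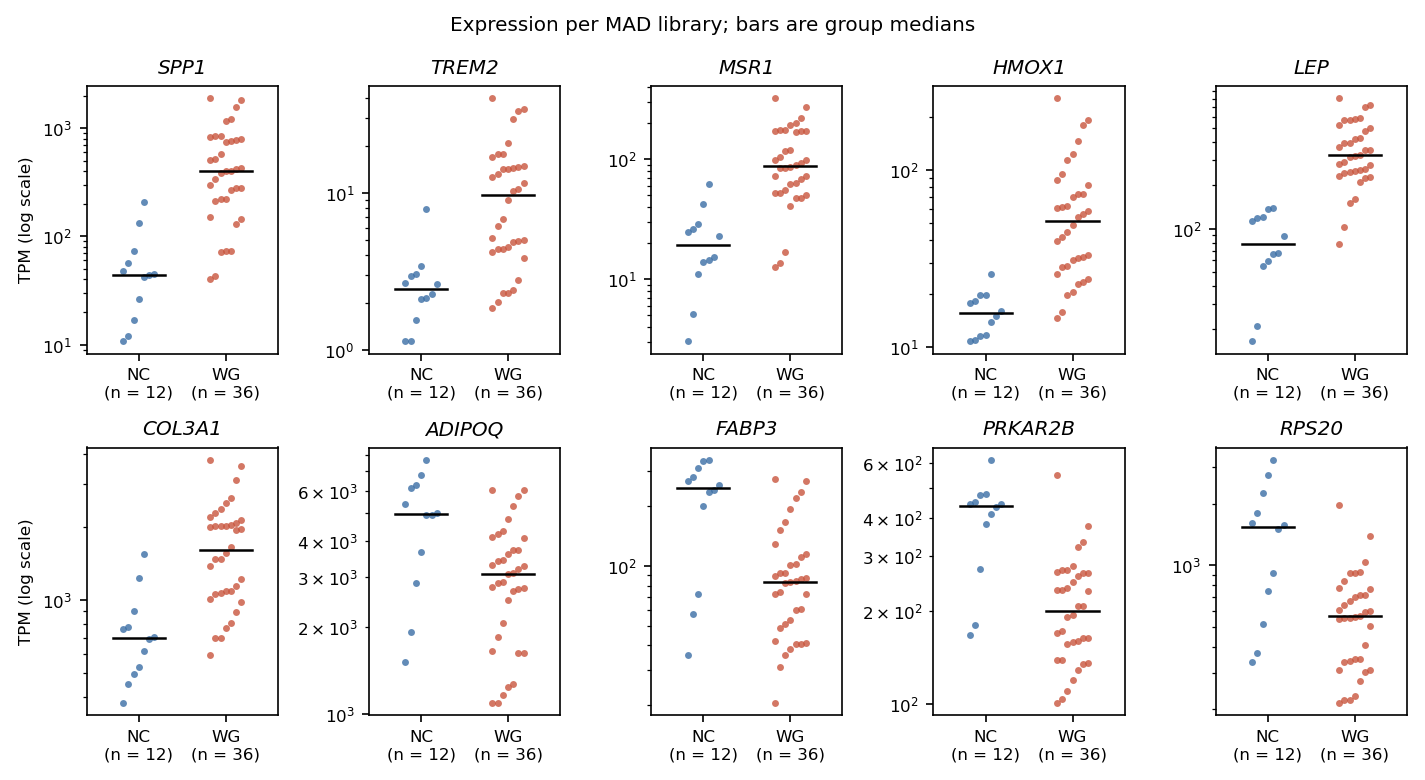
Expression of 10 genes in each MAD library (vertical axis, TPM on a log scale; 1 point per library, 12 NC and 36 WG; bars are group medians). *SPP1*, *TREM2*, *MSR1*, *HMOX1*, *LEP* and *COL3A1* were higher in WG with part of the points overlapping, and *ADIPOQ*, *FABP3*, *PRKAR2B* and *RPS20* were lower.

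The other abundant DEGs with the largest rises were not all genes of macrophages. *TREH*, the enzyme that splits trehalose, rose by 2.85 ± 0.50 on the log2 scale, from a median of 2.55 to 18.9 TPM. *TM4SF19*, a membrane protein of the tetraspanin-like L6 family, rose by 2.80 ± 0.58 and *PADI2*, an enzyme that converts arginine to citrulline in proteins, by 2.33 ± 0.41. *AMBN*, which encodes a protein of tooth enamel, went from 3.14 to 15.4 TPM by median, and 28 WG libraries exceeded the highest NC value of 8.25 TPM. *SCIN*, an actin-severing protein, went from 15.4 to 67.4 TPM, with 32 of 36 WG libraries above every NC library. *RGS17*, a regulator of G-protein signalling, was measured at 0.576, 1.59 and 3.42 TPM in NC and at 2.64, 8.60 and 21.1 TPM in WG. Only 2 WG libraries were within the NC range of *RGS17*, and its log2 fold change was 2.18 ± 0.28 (edgeR adjusted p = 2.4e-07). The rest of the 12 largest rises were *SFRP2* (2.16 ± 0.54, a secreted Wnt inhibitor), *LOXL4* (2.15 ± 0.37, a collagen cross-linking oxidase), *ACP5* (2.11 ± 0.44, the tartrate-resistant acid phosphatase of macrophages and osteoclasts) and *LPXN* (2.11 ± 0.35, an adhesion adaptor of blood cells).

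Macrophage genes rose together. Of 23 tested members of the macrophage list, 20 were higher and none was lower, against 5.38% higher over all genes, and the median log2 fold change of the list was 0.95. The members were chosen with earlier results of these data known, so the comparison with all genes is not independent. The summed level of the list was 572, 1118 and 1723 TPM in NC and 820, 2356 and 4628 TPM in WG, and 31 of 36 WG libraries lay above the highest NC library. *CD163* (0.95 ± 0.20) and *MRC1* (0.93 ± 0.18), scavenger and mannose receptors of resident macrophages, rose by similar amounts. *C1QC*, a chain of the complement component C1q that macrophages make, was measured at 39.2, 92.6 and 261 TPM in NC and at 70.2, 280 and 689 TPM in WG (log2 fold change 1.25 ± 0.22, edgeR adjusted p = 9.2e-05). *ITGAM*, an integrin of myeloid cells, rose by 0.95 ± 0.19 and *LAPTM5*, a lysosomal membrane protein of blood cells, by 1.01 ± 0.20. Of the NC libraries rich in smooth muscle genes, replicates 1 and 5 were among the 3 lowest NC libraries of the list (743 and 572 TPM), and replicate 6 was above the NC median (1263 TPM). Without NC replicates 1, 5 and 6, 13 of the 23 members were higher and the median was 0.83. The part of tissue composition in the rise was not tested.

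Lipid-associated macrophage genes, which macrophages turn on around dying adipocytes, had 10 of 19 members higher and 0 lower, with a median of 0.77. Their summed level was 1637, 3433 and 4321 TPM in NC and 3035, 5457 and 10882 TPM in WG, and 30 WG libraries exceeded the NC range. *ATP6V0D2*, a subunit of the lysosomal proton pump, was near the detection limit in NC (0, 0.282 and 1.22 TPM) and reached 0.127, 2.23 and 18.3 TPM in WG, with 25 libraries above the highest NC library. Its log2 fold change was 3.04 ± 0.59 (edgeR adjusted p = 0.0003), from low NC counts. Genes were tested if above 0.5 TPM in 80% or more of the libraries of a group, and *ATP6V0D2* passed only through WG. A gene that enters this way can hardly be called lower, so its call adds little to the 10 of 19. *CTSB*, a lysosomal protease, rose by 0.88 ± 0.20, and *LGALS3*, a galectin of phagocytes, by 1.47 ± 0.30. *PLIN2*, which coats lipid droplets, rose from a median of 81.4 to 260 TPM (1.15 ± 0.30, edgeR adjusted p = 0.0058) and had no call at 0.91 without NC replicates 1, 5 and 6. In that setting 8 of the 19 members were higher.

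**Figure D2:**
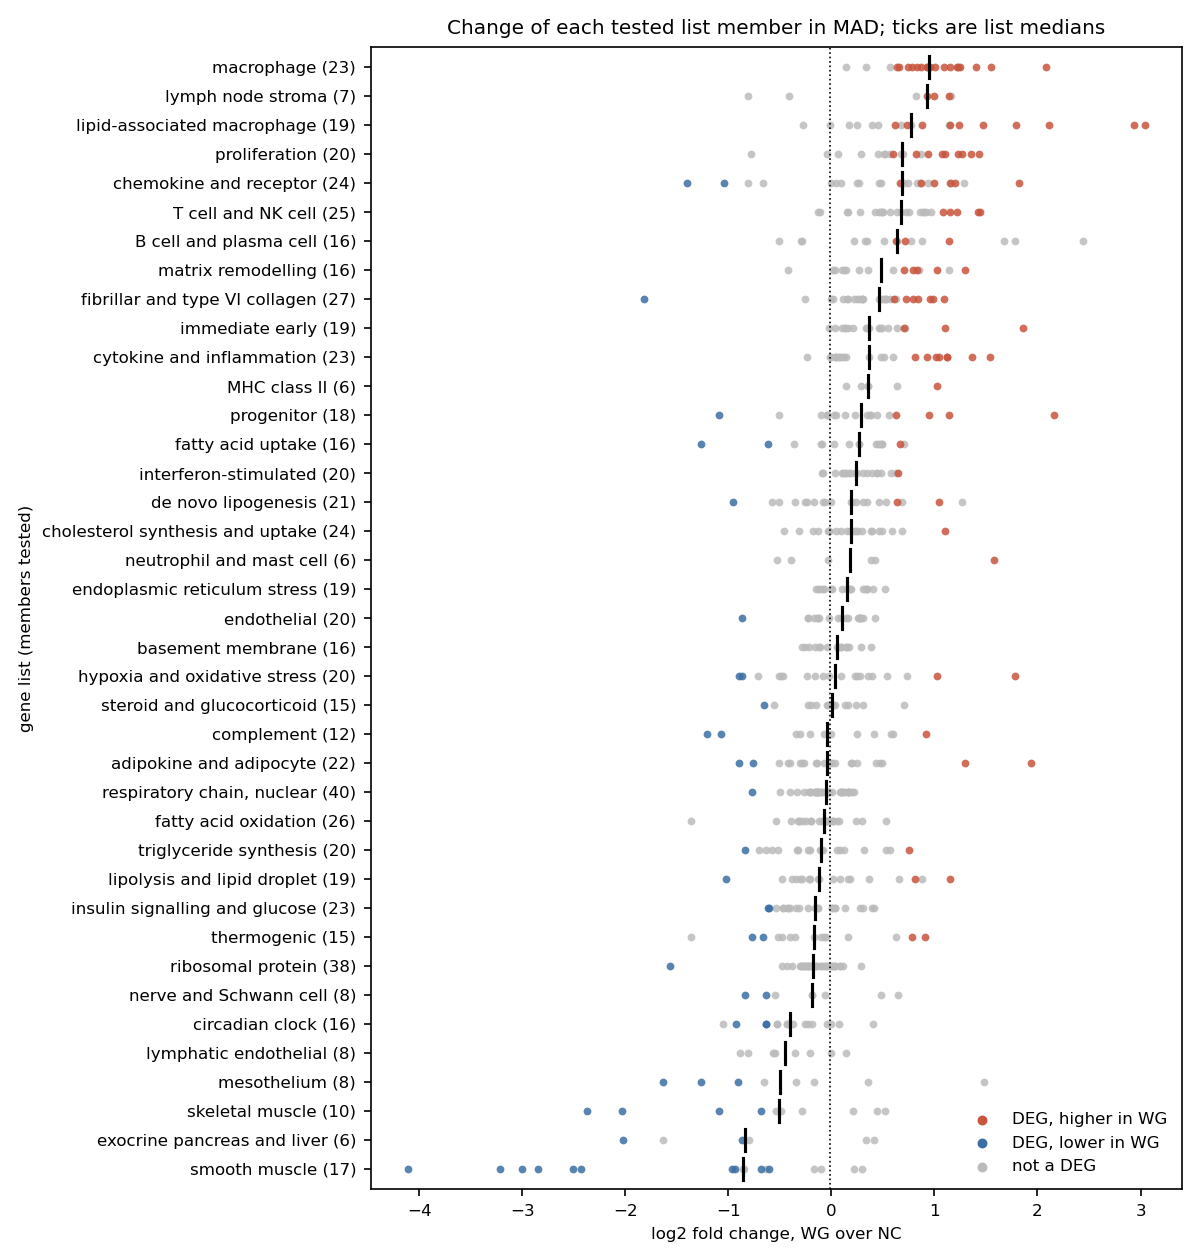
Change of each tested gene in the gene lists with at least 6 tested members (horizontal axis, log2 fold change of WG over NC; each row is 1 list with its number of tested members; colours mark DEGs; black ticks are list medians; the dotted line is the median of all genes, -0.01). The macrophage list lies highest by median, at 0.95, and the smooth muscle list lowest, at -0.85.

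The 2 macrophage lists were also examined at the gene starts. Among 10724 promoters of tested genes in RefSeq (the 250 bases before the start, Sscrofa11.1, both strands), the letters GAGGAAGT, which the myeloid factor PU.1 can bind, were found in 1.73%, in 4.07% of 614 DEGs higher in WG and in 1.57% of 447 DEGs lower in WG. The AP-1 letters TGACTCA were found in 2.47%, 4.40% and 2.46%, and the E-box letters TCACGTGA in 1.05%, 0.489% and 0.224%. Of the 20 macrophage members higher in WG, 1 held the PU.1 letters and 2 the AP-1 letters, and of the 10 lipid-associated members 1 held the PU.1 letters. A match is a description of the sequence and not evidence of binding. The promoters of both genes with the PU.1 letters are shown, since each gene rose in WG, with the letters (here as their reverse complement, ACTTCCTC) in capitals; the first is chr2:70209856-70210105 on the minus strand, with the match starting 58 bases before the gene, and the second is chr6:80592341-80592590 on the plus strand, with the match starting 196 bases before it.
ACP5: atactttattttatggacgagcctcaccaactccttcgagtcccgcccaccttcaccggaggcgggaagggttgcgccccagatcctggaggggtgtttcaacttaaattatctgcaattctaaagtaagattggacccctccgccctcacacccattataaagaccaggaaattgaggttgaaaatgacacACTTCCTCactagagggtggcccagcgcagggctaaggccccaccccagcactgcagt
C1QC: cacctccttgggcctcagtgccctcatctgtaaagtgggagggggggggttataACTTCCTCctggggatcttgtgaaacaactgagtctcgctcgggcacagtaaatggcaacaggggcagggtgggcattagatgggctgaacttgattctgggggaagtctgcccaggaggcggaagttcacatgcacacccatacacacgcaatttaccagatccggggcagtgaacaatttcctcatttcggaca

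Other immune lists changed in fewer of their members. Of 23 cytokine and inflammation genes, 8 were higher and 0 lower, against 5.38% higher and 5.29% lower over all genes. They included *IL6*, an inflammatory cytokine whose level was 3.98, 8.96 and 52.8 TPM in NC and 1.72, 32.4 and 109 TPM in WG (1.36 ± 0.33, edgeR adjusted p = 0.0033), and the toll-like receptors *TLR2* (0.92 ± 0.17) and *TLR8* (1.54 ± 0.33). *NLRP3*, a sensor of the inflammasome, rose by 1.12 ± 0.20, and *CSF1*, the growth factor of macrophages, by 1.02 ± 0.23. Of 24 chemokines and receptors, 6 were higher and 2 lower, but without NC replicates 1, 5 and 6 only 1 was higher and 1 lower, and without the libraries with under 90% of TPM on PCGs 6 were higher and 0 lower. *CCR1* (1.82 ± 0.34), a receptor of myeloid cells, rose most among those named, and *CCL2*, which attracts monocytes, went from a median of 35.9 to 90.8 TPM (1.202 ± 0.33, but 1.04 with no call without NC replicates 1, 5 and 6). *CCL16*, a chemokine made by liver, fell by 1.40 ± 0.37 on the log2 scale, and by 0.52, without a call, when the 5 libraries with *ALB* above 400 TPM were left out.

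Lymphocyte lists had positive medians (0.67 over 25 T cell and NK cell genes, 0.64 over 16 B cell and plasma cell genes). In these lists 5 and 3 members were higher, against 5.38% over all genes. *CD4*, the co-receptor of helper T cells, was at a median of 1.201 TPM in NC and 3.10 TPM in WG, and 22 WG libraries lay above the highest NC library (1.22 ± 0.31, edgeR adjusted p = 0.0046). *CD22*, a receptor of B cells, rose by 1.14 ± 0.26. *MS4A1*, which defines B cells, was at 136 TPM in WG replicate 31 and at most 12.5 TPM elsewhere in WG, and did not pass the test (2.44 ± 0.90, edgeR adjusted p = 0.05). *JCHAIN*, the joining chain of plasma cell antibodies, likewise reached 3610 TPM in that library against 223 TPM in the next (adjusted p = 0.094). Without WG replicate 31 the medians were 0.48 and 0.20, 4 and 2 members were higher, and 1 B cell gene was lower. Without NC replicates 1, 5 and 6, 2 T cell and NK cell genes and 1 B cell gene were higher, and without the libraries rich in *ALB* 2 and 2 were. The lymph node list (7 tested genes, 3 higher, and 1 higher without NC replicates 1, 5 and 6) shares *CD22* with the B cell list and *CCL19* with the chemokine list. Of 6 MHC class II genes, only *SLA-DMB*, which helps load peptides, was higher (1.02 ± 0.30), and *CD74*, the invariant chain, was at a median of 970 TPM in NC and 1064 TPM in WG. Of 20 interferon-stimulated genes, 1 was higher (5%, against 5.38% over all genes). It was *MX2*, which lost its call without NC replicate 3 or 5 (0.57 in both cases). Of 6 neutrophil and mast cell genes, 1 was higher, *CSF3R* (1.58 ± 0.37), the receptor of a neutrophil growth factor.

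Of 20 tested members of the proliferation list, which were at low levels, 9 were higher, 0 lower and 11 had no call. The summed level was 37.8, 59.9 and 99.1 TPM in NC and 57.6, 90.2 and 297 TPM in WG, with 14 WG libraries above the NC range and WG replicate 31 the highest. *MCM2* (1.23 ± 0.30) and *MCM3* (0.94 ± 0.20), subunits of the replicative helicase, kept their call in all settings except the replicate block, while *TOP2A*, the topoisomerase of dividing cells (1.36 ± 0.40), lost it without NC replicates 1, 5 and 6. In that setting 4 members were higher and 1 lower, and 5 were higher without the libraries rich in *ALB*. NC replicates 1 and 5 had the lowest summed level of the list in NC.

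**Figure D3:**
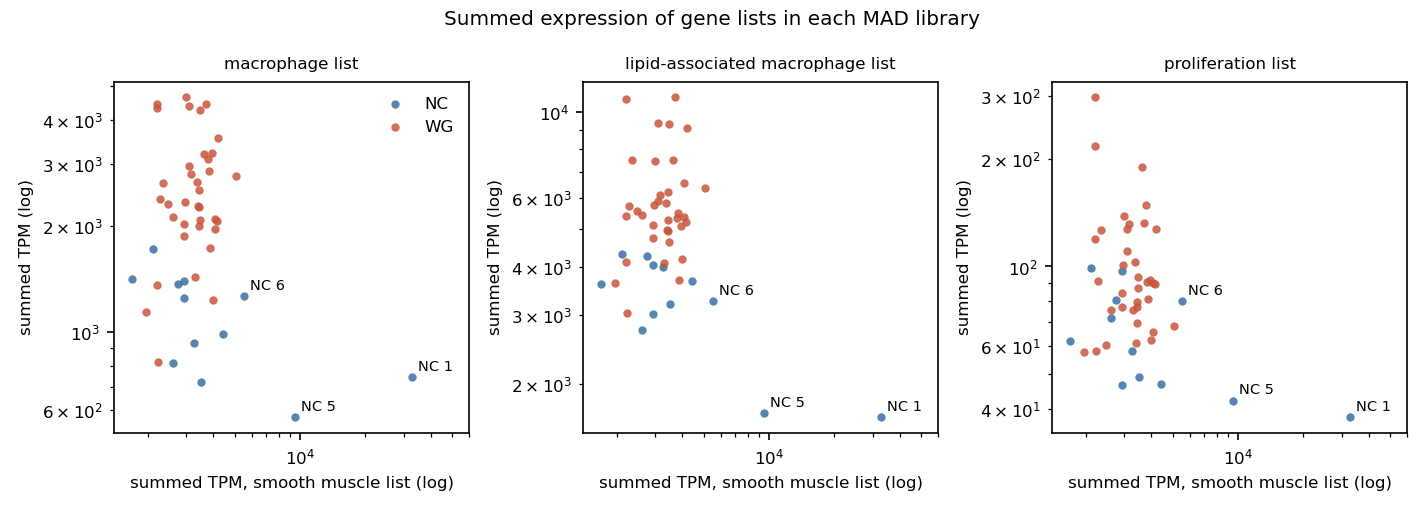
Summed TPM of the macrophage, lipid-associated macrophage and proliferation lists (vertical axes, log scale) against that of the smooth muscle list (horizontal axis, log scale), 1 point per MAD library, with NC replicates 1, 5 and 6 labelled. NC replicate 1 lies apart on the horizontal axis at 32881 TPM, and both NC replicate 1 and NC replicate 5 lie near the bottom of each vertical axis.

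Among hormones and markers of adipocytes, leptin moved most. *LEP* (chr18:20106867-20124071, minus strand), the satiety hormone that adipocytes release as they fill, was measured at 16.5, 78.3 and 138 TPM in NC and at 77.9, 322 and 805 TPM in WG. The groups were nearly separate, with 34 of 36 WG libraries above the highest NC library (log2 fold change 1.93 ± 0.27, edgeR adjusted p = 1.9e-06). *ADIPOQ*, which encodes adiponectin, a hormone that sensitizes tissues to insulin, was 1510.2, 4983 and 7691 TPM in NC and 1091, 3079 and 6041 TPM in WG. It was lower by a log2 fold change of -0.76 ± 0.22 (edgeR adjusted p = 0.011), with wide overlap, and had no call at -0.65 without the libraries rich in *ALB*. The lowest NC values of *ADIPOQ* were those of NC replicates 1 and 5, and without NC replicates 1, 5 and 6 its log2 fold change was -0.94. *RBP4*, a carrier of vitamin A, fell by 0.90 ± 0.20 on the log2 scale. Of 22 adipokine and adipocyte genes, 2 were higher and 2 lower, and the median was -0.04. *FABP4*, the main fatty acid carrier of adipocytes, was at a median of 7151 TPM in NC and 11286 TPM in WG (0.49 ± 0.17) and below the fold threshold.

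Calls among lipid metabolism genes had no common direction. The share called was 18.75% for fatty acid uptake, 15.8% for lipolysis and lipid droplets and 14.3% for de novo lipogenesis. It was 10% for triglyceride synthesis and 0% for fatty acid oxidation, against 10.7% over all genes in either direction. Of 16 fatty acid uptake genes, 1 was higher and 2 lower. *FABP3* (chr6:87943003-87950708, minus strand), a fatty acid carrier best known from muscle, was 35.7, 248 and 344 TPM in NC and 20.6, 83.6 and 275 TPM in WG. The other 9 NC libraries lay above 200 TPM, and NC replicates 1, 5 and 9 lay below 73 TPM. The log2 fold change was -1.27 ± 0.29 (edgeR adjusted p = 0.0021). *PRKAR2B*, the regulatory subunit of protein kinase A that is abundant in adipocytes, went from 167, 437 and 615 TPM in NC to 101, 200.3 and 548 TPM in WG (-1.02 ± 0.19, edgeR adjusted p = 2e-04), and 14 WG libraries lay below every NC library. It was the fall among 19 lipolysis and lipid droplet genes, where *PLIN2* and *PLIN3* (0.81 ± 0.18) rose. *LPIN1*, a phosphatase on the way to triglycerides, fell by 0.84 ± 0.20, while *ACSL5*, which activates fatty acids, rose by 0.75 ± 0.15. They were the calls among 20 triglyceride synthesis genes. Of 21 de novo lipogenesis genes, 2 were higher (*PNPLA3*, 1.05 ± 0.31, and *MID1IP1*, 0.64 ± 0.20) and *MLXIPL*, the transcription factor that responds to carbohydrate, was lower (-0.96 ± 0.32). These were less stable: *PNPLA3* had no call without NC replicates 1, 5 and 6 (0.85), *MID1IP1* none without NC replicate 9 (0.57) or 11 (0.56), and *MLXIPL* none without NC replicate 2 (-0.87), 9 (-0.88) or 12 (-0.90). None of 26 fatty acid oxidation genes was called. *CPT1A*, the gate of mitochondrial import, was at a median of 33.8 TPM in NC and 53.9 TPM in WG (0.53 ± 0.14) and under the fold threshold.

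Of 24 cholesterol genes, *SOAT1*, which makes cholesteryl esters, was the call, at a median of 8.82 TPM in NC and 19.5 TPM in WG (1.10 ± 0.21, edgeR adjusted p = 0.00025), with 30 WG libraries above the NC range. Of 23 insulin signalling and glucose genes, 2 were lower, *GRB10* (-0.61 ± 0.14) and *IRS1* (-0.61 ± 0.21), adaptors of the insulin receptor. Both were near the fold threshold of 1.5. *GRB10* fell below it without NC replicate 1 (-0.56), 9 (-0.52) or 11 (-0.47), and *IRS1* without NC replicate 4 (-0.51), 8 (-0.54) or 12 (-0.49). Without NC replicate 5 (-0.62) or 9 (-0.61), *IRS1* lost its call by the adjusted p. Among 20 hypoxia and oxidative stress genes, *HMOX1*, which breaks down haem, was 10.8, 15.5 and 25.9 TPM in NC and 14.6, 51.8 and 254 TPM in WG, and 28 WG libraries exceeded the NC range (1.79 ± 0.31, edgeR adjusted p = 9e-05). *TXNRD1*, an antioxidant reductase, rose by 1.02 ± 0.20. *VEGFA*, the growth factor of blood vessels, fell by 0.86 ± 0.17, from a median of 105 to 68.6 TPM. *EGLN3*, an oxygen sensor, was lower (-0.90 ± 0.28), but not without NC replicate 1 (-0.61) or 3 (-0.63). No gene was called among 19 of endoplasmic reticulum stress.

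Of 27 genes in the list of fibrillar and type VI collagens, which also holds genes of collagen cross-linking and elastic fibres, 7 were higher, 1 was lower and 19 had no call, with a median of 0.46. *COL3A1*, the chain of type III collagen, was 378, 699 and 1545 TPM in NC and 598, 1607 and 3787 TPM in WG, with 19 WG libraries above the NC range (0.96 ± 0.22, edgeR adjusted p = 0.0017). *COL1A2* (0.84 ± 0.20) and *COL16A1* (0.79 ± 0.19), the collagen cross-linker *LOXL1* (1.09 ± 0.18) and *FBN1*, the fibrillin of microfibrils (0.99 ± 0.21), also rose. *POSTN*, a matrix protein, was the lower one (-1.81 ± 0.42), with 415 TPM in NC replicate 1 against an NC median of 14.3 TPM. Without that library its value was -0.85 with no call, and without NC replicates 1, 5 and 6 it was 0.36. Of 16 matrix remodelling genes, 5 were higher and 0 lower, among them *PLAU* (1.03 ± 0.25) and its receptor *PLAUR* (0.79 ± 0.18). None of 16 basement membrane genes was called. Of 18 progenitor genes, 4 were higher and 1 lower. *PI16*, a marker of fibroblast-like progenitors, rose by 0.95 ± 0.22 and *SFRP4*, a Wnt inhibitor, by 1.15 ± 0.23, while *APOD*, a lipid carrier, fell by 1.09 ± 0.29. *VEGFA* was the call among 20 genes of the endothelial list, and none of 8 lymphatic genes was called.

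Of 17 smooth muscle genes, 10 were lower and 0 higher, with a median log2 fold change of -0.85, and these falls rested on few libraries. The median of their summed level was higher in WG (3375 TPM) than in NC (3093 TPM). *ACTG2*, the actin of gut smooth muscle, was 9.64, 35.3 and 3814 TPM in NC and 5.75, 26.4 and 149 TPM in WG. The highest NC values were those of replicates 1, 5 and 6 (3814, 779 and 343 TPM), and all other NC libraries were at most 187 TPM. The log2 fold change was -4.11 ± 0.48 with all libraries and -0.72, with no call, without those 3. In that setting 1 of the 17 genes was lower and the list median was -0.14. *PCP4*, a calmodulin-binding protein, had the largest fall (-5.74 ± 0.59) and kept a call at -1.58, as did *RAVER2* (-3.53 to -1.49), *TRPC4* (-3.05 to -1.19) and *DGKB* (-2.98 to -0.98). *TRPC4*, a cation channel, was 1.44, 2.82 and 59.6 TPM in NC and 0.823, 1.36 and 2.85 TPM in WG, and 21 WG libraries lay below the lowest NC library. *DES*, *KCNMB1*, *MYH11*, *KCNMA1*, *CNN1* and *ASB2*, with log2 fold changes from -3.22 to -2.82, lost their calls. *APOC3*, an apolipoprotein of liver, was called lower (-2.80 ± 0.67) but not without the libraries rich in *ALB* (-0.75).

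Calls in other lists of tissues that can lie next to mesenteric fat were also lost when some libraries were left out. Of 10 skeletal muscle genes, 4 were lower (*CKM*, *ACTN2*, *NEB*, *ENO3*), of 8 mesothelium genes 3 (*KRT8*, *PKHD1L1*, *GPM6A*) and of 8 nerve genes 2 (among them *SOX10*). The median summed level of the mesothelium list was 145 TPM in NC and 174 TPM in WG, and that of the nerve list 99.9 and 153 TPM. For the skeletal muscle list it was lower in WG, at 1016 TPM in NC and 579 TPM in WG. The highest NC libraries of that list were replicates 12 and 4. None of the 8 genes named here kept its call without NC replicates 1, 5 and 6, but fewer NC libraries also make a call harder to reach. *ALB* was 12.5, 151 and 1475 TPM in NC and 2.18, 25.0 and 967 TPM in WG (-2.02 ± 0.67, edgeR adjusted p = 0.028), and had no call without NC replicate 7 (-1.503) or 11 (-1.58). It was 1 of 2 lower genes among 6 of liver and pancreas, with *SERPINA1* (-0.87 ± 0.24, and -0.54 with no call without NC replicate 11). Of 4 erythroid genes, 0 were called. *LGALS4* was the single tested gene of the intestinal epithelium (-0.68 ± 0.23), and lost its call without any of 6 NC libraries (-0.67 to -0.57).

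Over all genes, 10.7% were called in either direction. Of 19 immediate early genes, 3 were higher: *EGR2* (1.86 ± 0.36), *JUNB* (1.10 ± 0.27) and *FOS*, which was 133, 247 and 1084 TPM in NC and 198, 665 and 1451 TPM in WG and lost its call without NC replicate 1, 4, 5, 8 or 9 (0.63 to 0.65). Of 16 clock genes, 3 were lower: *DBP* (-0.92 ± 0.19), *TEF* (-0.63 ± 0.14, with -0.58 and no call without NC replicate 4 or 6) and *CIART* (-0.63 ± 0.13, with no call at -0.57 or -0.58 without NC replicate 5 or 7). The time of day of sampling is not in the labels. Of 15 thermogenic genes, *DIO2* (0.91 ± 0.28) and *TMEM26* (0.79 ± 0.20) were higher and 2 were lower, and of 15 steroid and glucocorticoid genes 1 was lower. Of 40 nuclear genes of the respiratory chain, 1 was lower, *COX7A1* (-0.77 ± 0.28), and it had no call without NC replicate 3, 5, 6, 7 or 10 (-0.76 to -0.56). Of 38 ribosomal protein genes, 1 was lower. That gene, *RPS20*, was 338, 1537 and 3272 TPM in NC and 214, 565 and 1970.3 TPM in WG, with 8 WG libraries below the NC range (-1.57 ± 0.27, edgeR adjusted p = 5.5e-05). Ribosomal protein genes have near-identical processed copies. Whether reads of *RPS20* were shared with such copies was not tested. Of 12 complement genes, *CLU* was higher (0.92 ± 0.24), and *C5* (-1.07 ± 0.27) and *CFB* (-1.21 ± 0.31) were lower. *C5* had no call without the libraries rich in *ALB* (-0.68), and *CFB* none without NC replicates 1, 5 and 6 (-0.90).

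Whether WG changed MAD differently from the greater omentum (GOM), retroperitoneal adipose (RAD) and upper layer of backfat (ULB) was tested as the change in MAD minus the mean change in the other ATs, over 196 libraries and 14770 genes. The NC and WG libraries numbered 9 and 45 in GOM, 12 and 39 in RAD, and only 5 and 38 in ULB. The ATs were taken from the same pigs, which the model did not take into account. Replicate numbers recur across ATs, but the labels do not say that they number pigs. Whether same-numbered samples of different ATs came from 1 pig was not tested, so the p-values of this contrast ignore any such pairing. The difference passed for 77 genes above (0.521%) and 130 below (0.88%). Without the libraries with under 90% of TPM on PCGs, 5 genes were above, of which 3 were among the 77, and 68 were below. Against GOM and RAD alone, 182 were above and 132 below. The below group rested on the NC libraries rich in smooth muscle genes: without NC replicates 1, 5 and 6, 3 genes were below and 56 above. *TIMD4*, a receptor for dying cells on resident macrophages, was among the genes above. It was 0, 1.53 and 4.48 TPM in NC MAD and 1.08, 3.67 and 32.5 TPM in WG MAD. In the fit over all ATs its log2 fold change was 1.56 in MAD but -2.002 in GOM, -0.74 in RAD and -1.22 in ULB, a difference of 2.88 ± 0.49 (edgeR adjusted p = 8.75e-06) that stayed at 2.67 without those 3 libraries. By contrast, *SPP1* (0.82 ± 0.51, adjusted p = 0.65), *MSR1* (0.86 ± 0.37, adjusted p = 0.32) and *LEP* (0.14 ± 0.28, adjusted p = 0.96) gave differences from the other ATs that did not pass. The log2 fold change of *LEP* was 1.94 in MAD, 2.30 in GOM, 2.03 in RAD and 1.06 in ULB.

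**Figure D4:**
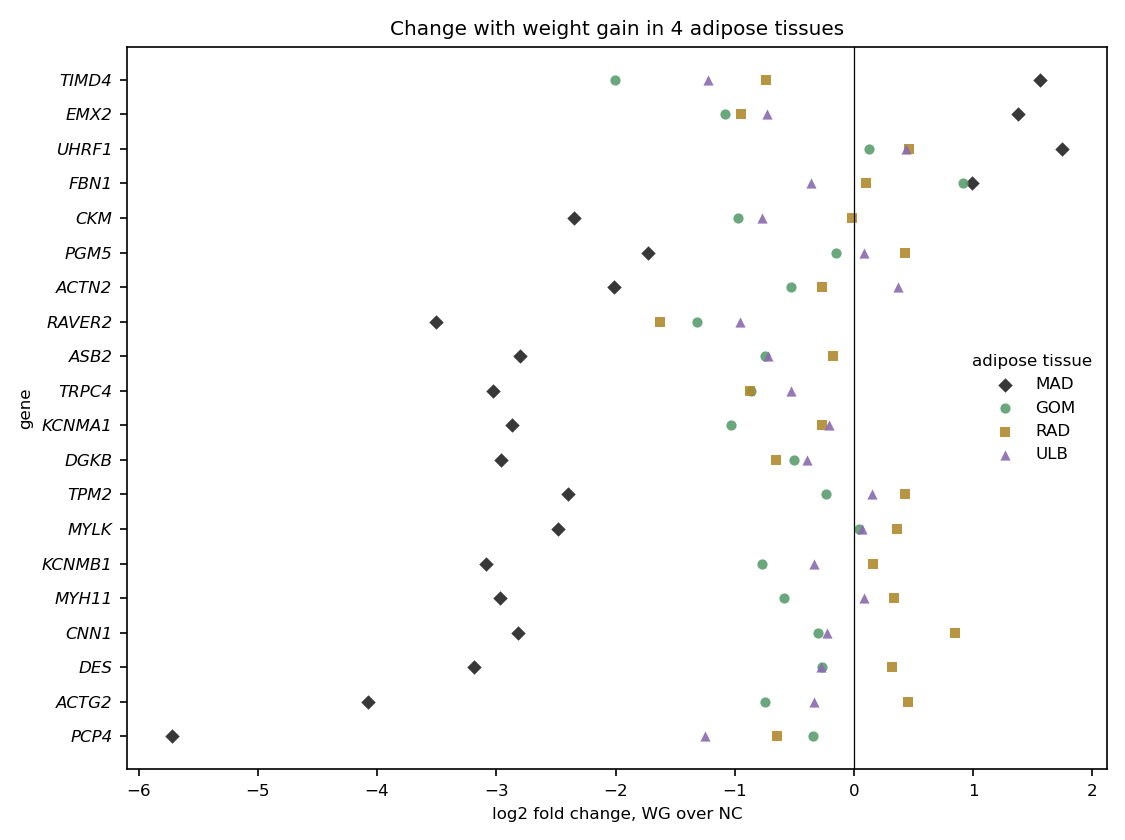
Log2 fold change of WG over NC (horizontal axis) in MAD, GOM, RAD and ULB for the named DEGs of MAD whose change differed from the mean of the other ATs (rows). *TIMD4* and *EMX2* are above 0 in MAD (1.56 and 1.38) and below 0 in the others, and *ACTG2* is at -4.08 in MAD and between -0.74 and 0.45 in the others, a difference that rested on 3 NC libraries.

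Hi-C measures how often parts of the genome lie close together, and the A-B index gives each bin of 20 kb a score, above 0 for compartment A and below 0 for compartment B. The index was more spread in WG: its SD over bins was 3.15 ± 0.16 (SD, n = 37) in WG and 2.95 ± 0.18 (SD, n = 12) in NC samples. Bins in A in NC had a median difference (WG minus NC) of 0.25, and bins in B one of -0.11, against 0.05 over all 113298 bins. When the index was quantile normalized between samples, these were -0.02, 0.00 and -0.01. A/B variable bins stayed in 1 compartment in over 80% of the samples of both groups but differed by over 0.75 at an adjusted p below 0.05 (limma). Of all bins, 3926 were variable with a higher index in WG (3.47%) and 652 with a lower index (0.575%), and 3870 of the former lay in A in NC. After quantile normalization the numbers were 1051 and 562, of which 966 and 355 were of the same class as before. The starts of tested genes lie mostly in A, and 11.2% of 10374 starts were in bins variable with a higher index and 0.328% in bins with a lower index.

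Of 596 starts of DEGs higher in WG, 79 were in variable bins with a higher index and 0 in those with a lower index. Of 431 starts of DEGs lower in WG, 22 and 2 were. The shares over all tested starts were 11.2% and 0.328%. The median index difference was 0.35 at DEGs higher, 0.19 at DEGs lower and 0.32 at all tested genes, and after quantile normalization 0.08, 0.00 and 0.03. Of 22 macrophage starts, 4 were in variable bins with a higher index, against 11.2% of all tested starts. Since Hi-C used the layer that held adipocytes, the index at genes of other cells need not be that of those cells. The largest rise of the index at a tested gene was at *EGR1*, an immediate early transcription factor, in chr2:140440001-140460000 (Sscrofa11.1). Its index was 4.19, 6.03 and 7.76 in NC samples and 6.36, 8.22 and 10.0 in WG samples, a difference of 2.14 ± 0.31 (SE, limma adjusted p = 4.7e-06), and 1.79 after quantile normalization. All samples were in A, and 24 of 37 WG samples lay above every NC sample. The expression of *EGR1* gave a log2 fold change of 0.10 ± 0.41 (edgeR adjusted p = 0.89). *CD14*, a receptor of macrophages for bacterial lipopolysaccharide, lies on the same chromosome, in chr2:142340001-142360000. Its bin, which holds *TMCO6* too, was at 3.14, 4.58 and 5.42 in NC and 3.82, 6.11 and 7.54 in WG (1.70 ± 0.26, limma adjusted p = 1.1e-05), with 31 WG samples above the NC range. Here expression was also higher, at 4.23, 10.1 and 19.2 TPM in NC and 8.61, 19.8 and 41.1 TPM in WG (0.75 ± 0.19, edgeR adjusted p = 0.0055), but with 0.55 and no call without NC replicates 1, 5 and 6. *GSN*, an actin-severing protein, had an index difference of 1.76 ± 0.31 with an expression change of 0.14 ± 0.13. *CD72*, a receptor of B cells that shares its bin with *TESK1*, differed by 1.71 ± 0.30, and its expression call (0.83 ± 0.30) was lost without any of 9 NC libraries (0.76 to 0.84). The bins with a higher index were densest on chromosome 2 from 140 to 145 Mb, where 132 of 250 bins were variable and 84 were after quantile normalization. Of 50 tested genes there, 2 were higher and 1 was lower.

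**Figure D5:**
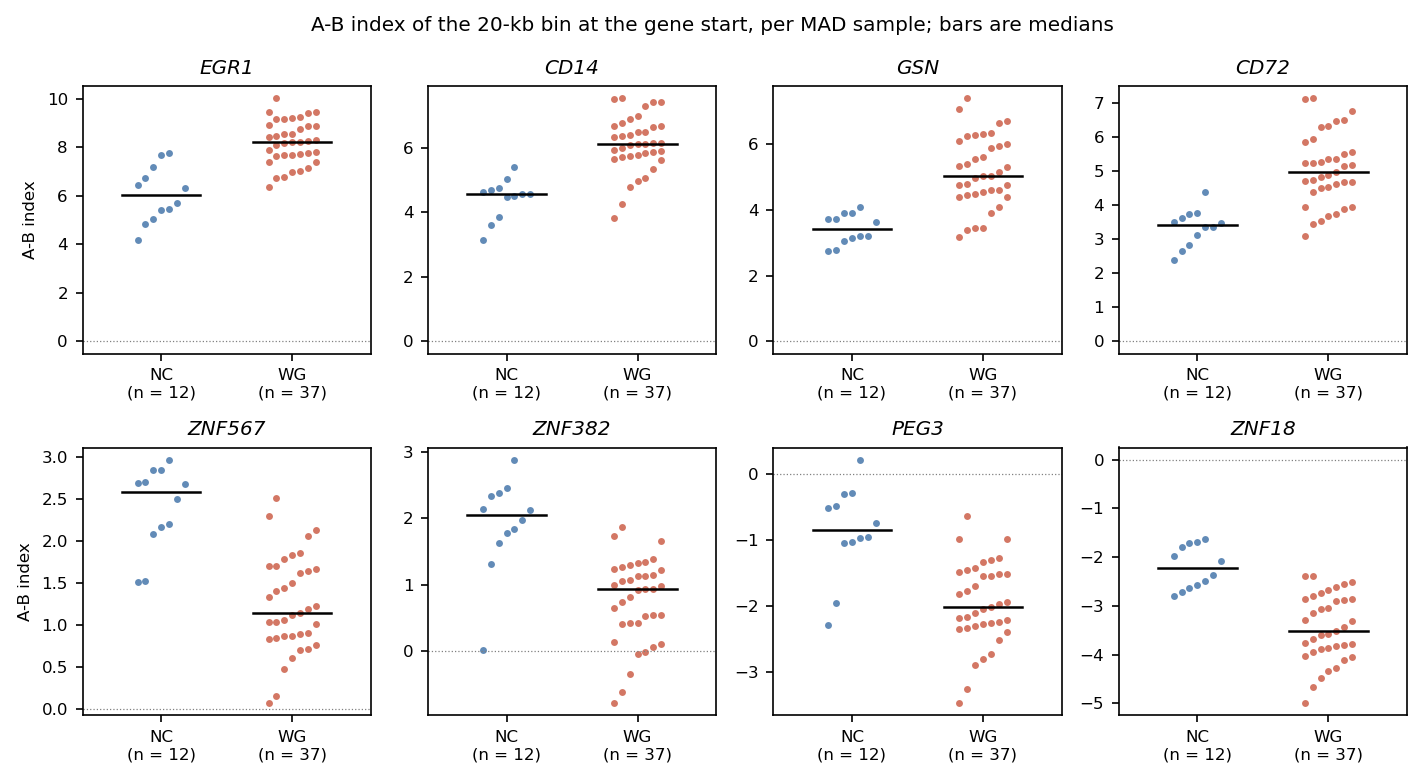
A-B index of the 20-kb bin at the start of 8 genes in each MAD Hi-C sample (vertical axis, no unit; 1 point per sample, 12 NC and 37 WG; bars are medians; the dotted line at 0 parts compartments A and B). The upper row was higher and the lower row lower in WG, with part of the samples overlapping in each panel.

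Bins with a lower index lay on 18 chromosomes, and were densest on chromosome 12 from 55 to 60 Mb (68 of 250 bins, 24 after quantile normalization) and chromosome 6 from 60 to 65 Mb (49 of 250 bins, 59 after quantile normalization). The largest fall at a tested gene was at *ZNF18*, a zinc finger gene in compartment B of every sample (chr12:56380001-56400000), at -2.79, -2.22 and -1.63 in NC and -4.99, -3.52 and -2.39 in WG. The difference was -1.25 ± 0.20 (SE, limma adjusted p = 2.9e-05), and 30 of 37 WG samples lay below every NC sample. *ZNF567*, a zinc finger gene in compartment A of every sample (chr6:45720001-45740000), was at 1.52, 2.59 and 2.97 in NC and 0.0778, 1.15 and 2.51 in WG (-1.15 ± 0.18, limma adjusted p = 1.5e-05). *ZNF382* nearby went down by 1.14 ± 0.21 in the index, and *PEG3*, an imprinted zinc finger gene, by 1.11 ± 0.21. None of these 4 genes was a DEG: their log2 fold changes were 0.17 ± 0.13, -0.42 ± 0.15, -0.32 ± 0.15 and -0.43 ± 0.16.

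Changes of compartment were few. With over 80% of the samples of each group in opposite compartments, 28 bins (0.0247%) went from B in NC to A in WG and 6 (0.0053%) from A to B. Of the 28, 8 lay on chromosome 3, and of the 6, 3 lay on chromosome 6. No start of a tested gene lay in them, but 8 of the bins from B to A overlapped a gene, among them *EPS8*, a regulator of actin, and *TNR*, a matrix protein of nerve tissue. The bin in *EPS8* (chr5:56940001-56960000) had a mean index of -0.52 in NC and 0.58 in WG, with 16.7% of NC and 81.1% of WG samples in A, and was no such change after quantile normalization. The bin of *ZNF304* (chr6:61760001-61780000) went the other way, with means of 0.50 and -0.73 and with 91.7% and 16.2% of samples in A. By frequency of A (in A in 70% or more of 1 group and in 30% or fewer of the other), 244 bins rose (0.215%) and 44 fell (0.0388%), but after quantile normalization 156 rose and 318 fell.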

How the data were processed

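Per the labels and the study's methods, RNA was depleted of ribosomal RNA and sequenced in stranded libraries, and the authors quantified transcripts with kallisto 0.43.0 against Sscrofa11.1 and summed them per gene. The authors deposited estimated counts per gene, used here rounded to whole numbers, and TPM, which is scaled over protein-coding genes and long non-coding transcripts together. The authors also deposited the A-B index, a score per 20-kb bin computed from balanced and quantile-normalized Hi-C contacts. In the count and the A-B index tables, 9 columns each matched no sample and were not used.

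PCGs that exceeded 0.5 TPM in 80% or more of the NC or of the WG libraries entered edgeR 4.0.16 (TMM, quasi-likelihood, Benjamini-Hochberg adjustment) in R 4.3.3, and bins were tested with limma 3.58.1, with 12 NC against 36 or 37 WG samples. The comparison with the other ATs used 1 model over all NC and WG libraries. Totals of counts per library set the precision, which was lower for genes of low TPM. The tests were checked on simulated data, where edgeR recovered 84% of genes changed 2-fold and 100% of those changed 4-fold. No simulated library held many genes of another tissue raised together. The check therefore does not cover calls that rest on such libraries. DESeq2 1.42.0, other filters, a replicate block, a covariate and left-out libraries were alternatives. Leaving out the libraries high in *ACTG2*, *ALB* or *MS4A1* and each NC ULB library was chosen after seeing the data.

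Named genes were the 12 largest rises and falls among DEGs with at least 5 TPM, up to 6 members per list with the smallest p, the genes with the largest index difference in variable bins and 4 DEGs per direction of the contrast with the other ATs. *EPS8*, *TNR* and *ZNF304*, which overlap bins that changed compartment, were chosen after their values were seen. Some named genes are not reported here. The members and lists were chosen with earlier results of these data known. Figures were drawn with matplotlib 3.10.9.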

Additional observations from a re-analysis of the deposited data

Results flagged for a closer look

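The change in MAD differed from the mean change in the other ATs, by a test of that difference (edgeR, adjusted p below 0.05), for 20 of the named DEGs. The log2 differences (MAD minus the others) above 0 were 2.88 for *TIMD4*, 2.30 for *EMX2*, a homeobox gene, 1.41 for *UHRF1*, which maintains DNA methylation, and 0.77 for *FBN1*. Among contractile genes they were -3.87 for *ACTG2*, -3.11 for *DES*, -2.92 for *CNN1*, -2.91 for *MYH11*, -2.64 for *MYLK* and -2.51 for *TPM2*. Among channels and other genes they were -4.98 for *PCP4*, -2.77 for *KCNMB1*, -2.44 for *DGKB*, -2.36 for *KCNMA1*, -2.27 for *TRPC4*, -2.25 for *ASB2* and -2.21 for *RAVER2*. For muscle genes *ACTN2*, *PGM5* and *CKM* they were -1.87, -1.84 and -1.77. Without NC replicates 1, 5 and 6, *TIMD4* (2.67, adjusted p = 0.0035) and *EMX2* (2.03, adjusted p = 0.046) kept the call and the other 18 genes did not. *EMX2*, *UHRF1*, *FBN1* and *CKM* also lost it without the libraries with under 90% of TPM on PCGs.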

How the results depend on the processing

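Of 133 called named genes, 69 kept the call under every setting other than the replicate block and 103 without each NC library in turn. NC and WG pigs differ, so replicate numbers pair no NC sample with a WG sample. The correlation of deviations over 11 same-numbered pairs was -0.546 to 0.359, and 1 NC library correlated best with its own number. With the replicate block, 11 genes were higher and 2 lower, 0 members of the macrophage, lipid-associated macrophage, proliferation and smooth muscle lists were called, and 2030 bins were variable with a lower index. Without a filter on low genes 2024 genes were lower, and without the libraries with under 90% of TPM on PCGs 441 were lower, while the difference in that share was -0.53 points. Without NC replicates 1, 5 and 6, 387 genes were lower, 13 macrophage and 4 proliferation genes were higher, 1 smooth muscle gene was lower, and *GPM6A* (0.16), *KRT8* (0.35) and *POSTN* (0.36) changed sign. The same libraries left 3 genes below the other ATs. Without the libraries rich in *ALB*, 5 proliferation genes were higher. The uncalled change of *EGR1* was -0.10 with the share as a covariate, -0.027 without NC replicates 1, 5 and 6, and -0.011 to 0.42 without each NC library.

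Genes above the other ATs numbered 5 without the libraries low in that share, where 68 were below, 182 against the other visceral ATs alone, and 42 to 104 without each NC ULB library. Quantile normalization gave 1051 variable bins with a higher index, and 156 and 318 bins by frequency of A, rising and falling. With an index difference above 0.5, 11385 bins were higher and 2878 lower. With limits of 80% and 20%, 28 bins rose and 6 fell in frequency, and with over 90% of samples in opposite compartments 2 went from B to A and 0 from A to B. Without each NC sample in turn, 551 to 1117 variable bins had a lower index and 30 to 61 bins went from B to A, both highest without NC replicate 7. The causes were not tested. Depth limits genes of low TPM, such as *ATP6V0D2*.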
